A study of Lytechinus variegatus with 9 samples.

Results

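The genes described here moved in the same direction when sea urchin embryos were raised with either of 2 unrelated kinase inhibitors, one against BMP receptors and the other against VEGF receptors. They were chosen in 2 steps. The mean of both drug effects had to pass edgeR's quasi-likelihood test at a Benjamini-Hochberg adjusted p under 0.05, and each of the 6 inhibitor libraries had to lie on the same side of the DMSO library from its own mating. Of 26814 genes in the count table, 16866 had enough counts to be tested and 474 met both conditions, of which 256 were lower and 218 were higher than in DMSO. These 474 are called shared genes below. For each of them the direction in the 6 pairs was fixed by this choice and is no separate evidence. The 9948 genes with too few counts could not become members.

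The libraries were made from poly-A RNA of wild-type whole embryos of *Lytechinus variegatus*, a sea urchin whose larva builds a calcite endoskeleton. Embryos of 3 matings were grown in artificial seawater at 21 °C until the tri-radiate spicule rudiments had formed, between 18 and 20 hours post-fertilization. From then until the late pluteus stage at 2 days post-fertilization, the embryos of each mating received the carrier DMSO, axitinib at 75 nM or K02288 at 1 µM. K02288 is a small molecule that blocks kinases of the Type I BMP receptor class, and axitinib blocks VEGF receptor kinases. Both inhibitors were added in DMSO, so every embryo was exposed to the carrier, and the controls received the highest DMSO volume in use. Each treatment was measured at 1 dose and 1 time, and no second inhibitor of either pathway was included. The replicate is a mating, with 1 library per treatment and mating, so each group holds 3 libraries.

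The skeleton of the pluteus is secreted by primary mesenchyme cells (PMCs), which fuse into a syncytium and deposit spicule matrix proteins together with calcium carbonate. The VEGF receptor sits on the PMCs and receives ligand from the overlying ectoderm, while BMP ligands act through Smad transcription factors and specify the dorsal side. Around both lies the ectoderm, which secretes the apical extracellular matrix known as the hyaline layer. The comparison asks which transcripts respond when either signal is blocked during the growth of the skeletal rods.

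The 9 libraries held between 9359212 and 11815263 counts, and a gene without counts could be present at up to 3 counts per library, a limit that covers counting error only. Matings differed more than treatments, since the first 2 principal components (36.3% and 32.2% of the variance) separated the matings and the third (10.5%) separated axitinib from the other libraries. The fourth (6.11%) separated K02288 from DMSO, with axitinib between them. Ribosomal RNA took 0.778% to 2.41% of the counts and mitochondrial genes took 3.38% to 6.49%, with the highest value of both in K02288 replicate 1. Marker genes of PMCs, pigment cells, muscle, neurons, gut, ciliated cells and ectoderm were all detected. The 20 PMC markers (spicule matrix and MSP130 genes), of which 17 had counts in every library and none was at 0 throughout, summed to 4473 to 5313 CPM (counts scaled to library size) with DMSO, 3289 to 4025 with K02288 and 2339 to 3174 with axitinib. Each sum was 0.730 to 0.900 times that of the own DMSO library with K02288 and 0.519 to 0.632 times with axitinib. Of the 17 tested PMC markers 6 are themselves shared and lower, so the sum in part repeats spicule matrix and MSP130 genes named below. It moved with treatment beside every PMC gene named, and its part in those results was not tested. In bulk RNA fewer cells of a type and less RNA per cell cannot be told apart.

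On the mean of both drug effects, 620 of 16866 tested genes passed the test (3.68%), 362 lower (2.15%) and 258 higher (1.53%). The 474 shared genes were 2.81% of all tested genes, with 1.52% lower and 1.29% higher. The requirement on single libraries was the wider of the 2 conditions, as 6.36% of all tested genes were lower in 6 of 6 pairs and 6.94% were higher in 6 of 6, whatever their p. At an unadjusted p up to 0.05, the mean effect passed in 2538 genes (15.0%). Changes were mostly modest. The median size of the mean effect over the shared genes was 0.60 on the log2 scale (range 0.28 to 3.67), and 88 genes changed more than 2-fold, 59 of them lower and 29 higher. Over all tested genes the median of the mean effect was 0.01. The count rested strongly on mating 3, falling from 474 to 212 without DMSO replicate 3 and to 178 without all libraries of that mating. Omitting DMSO replicate 2 lowered the calls on the mean effect from 620 to 386, and omitting that mating lowered them to 404.

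More genes passed for axitinib than for K02288. In the same fit, 403 genes passed for K02288 against DMSO (2.39%) and 1156 for axitinib (6.85%). The K02288 calls were 0.872% lower and 1.52% higher, the axitinib calls were 3.76% lower and 3.09% higher, and both comparisons used the same 3 DMSO libraries. Among the 474 shared genes, 132 passed for each drug alone, 254 passed for axitinib only, 58 for K02288 only and 30 for neither. The median effect over the 256 lower genes was -0.50 with K02288 and -0.77 with axitinib, and over the 218 higher genes it was 0.49 with K02288 and 0.59 with axitinib. The 2 drugs were then compared with each other in a contrast that leaves DMSO out. This contrast passed at an adjusted p under 0.05 for 131 of the 474 (27.6%, against 7.35% of all tested genes), and axitinib moved the gene further in 109 of them and K02288 in 22.

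**Figure D1:**
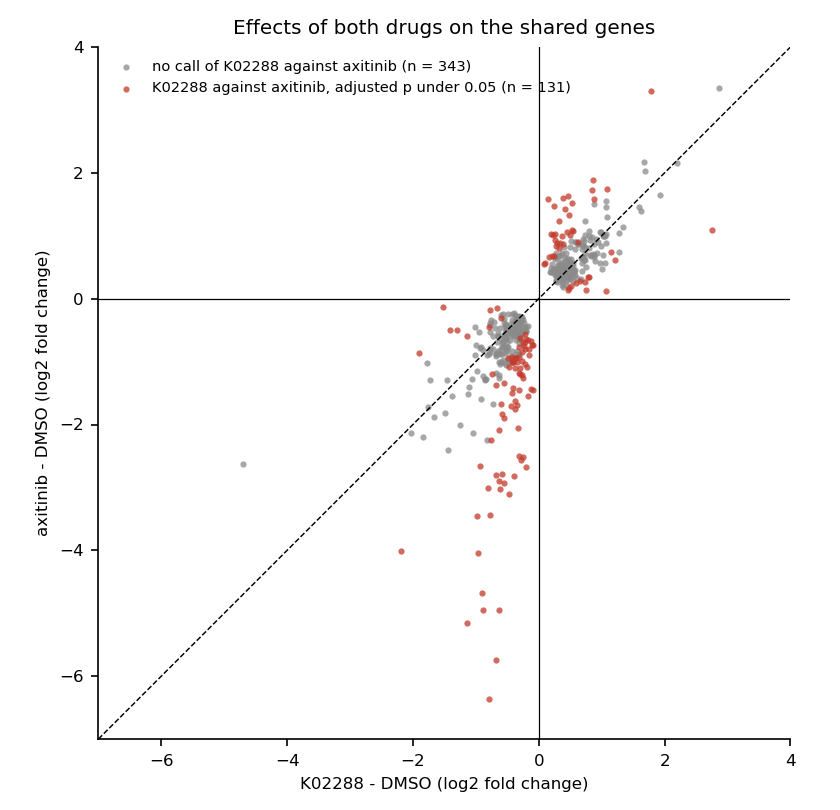
Effect of K02288 against DMSO (x axis) and of axitinib against DMSO (y axis), both as log2 fold changes, for the 474 shared genes, with the line of equal effects dashed. The 131 red points passed the test of K02288 against axitinib, and the longest arm of the cloud, at the lower center, holds genes that fell far more with axitinib than with K02288.

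Among the lower genes with the lowest p, falls were mostly steeper with axitinib. LOC121417344 encodes a scavenger receptor cysteine-rich (SRCR) protein, a family greatly expanded in sea urchins and known from their immune cells (chromosome 6, positions 30152138 to 30166981, minus strand of assembly Lvar_3.0). Its normalized counts were 665, 333 and 716 under DMSO, 421, 285 and 260.2 under K02288 and 7.35, 5.03 and 7.79 under axitinib. The axitinib libraries lay far below all others, whereas 1 K02288 library exceeded the lowest DMSO library. The mean effect was -3.57 ± 0.19 (SE, adjusted p = 3.34e-09), and the drugs differed by 5.58 (95% confidence interval 4.97 to 6.18, adjusted p = 1.26e-09). A related SRCR gene on the same chromosome, LOC121417363, had normalized counts of 197, 150.3 and 312 under DMSO, 122, 106 and 177 under K02288 and 8.40, 2.01 and 1.11 under axitinib. It likewise nearly disappeared with axitinib and fell less with K02288, at -5.74 and -0.68, and the K02288 effect did not pass alone (adjusted p = 0.0960).

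Proteins matched to metabotropic glutamate receptor 2, a G-protein-coupled receptor, gave the same shape. LOC121408508 had normalized counts of 688, 239.6 and 308 under DMSO, 376, 133 and 156 under K02288 and 19.9, 14.1 and 12.2 under axitinib, with a mean effect of -2.79 ± 0.14 (SE, adjusted p = 3.34e-09). In LOC121408446, the second gene with this match, they were 390.3, 157 and 217 under DMSO, 146, 87.1 and 144 under K02288 and 18.9, 16.1 and 8.91 under axitinib. The 6 drug libraries of LOC121408446 did not overlap the DMSO libraries, and those of LOC121408508 overlapped through K02288 replicate 1 alone. LOC121424795, matched to a contactin-associated adhesion protein of the neurexin family, fell by 71.1% on the mean effect. Here the K02288 effect was -0.48 ± 0.14 (adjusted p = 0.0766) and the axitinib effect was -3.11 ± 0.16 (adjusted p = 1.08e-09), so K02288 alone did not reach the threshold.

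In contrast to these genes, LOC121407396 fell by about as much with either drug. It is on the PMC-enriched list, and its product is matched only to a tetratricopeptide repeat protein of *Dictyostelium*. It had normalized counts of 822, 475 and 628 under DMSO, 181, 158 and 225 under K02288 and 196, 151 and 236 under axitinib. All 6 drug libraries lay below the lowest DMSO library. K02288 gave -1.76 ± 0.14 (adjusted p = 2.67e-06) and axitinib gave -1.72 ± 0.14 (adjusted p = 3.65e-07), and the difference between them was -0.04 (95% confidence interval -0.35 to 0.27, adjusted p = 0.931). The plot of single library ratios shows this gene in near-uniform color across its row, unlike the rows above it.

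**Figure D2:**
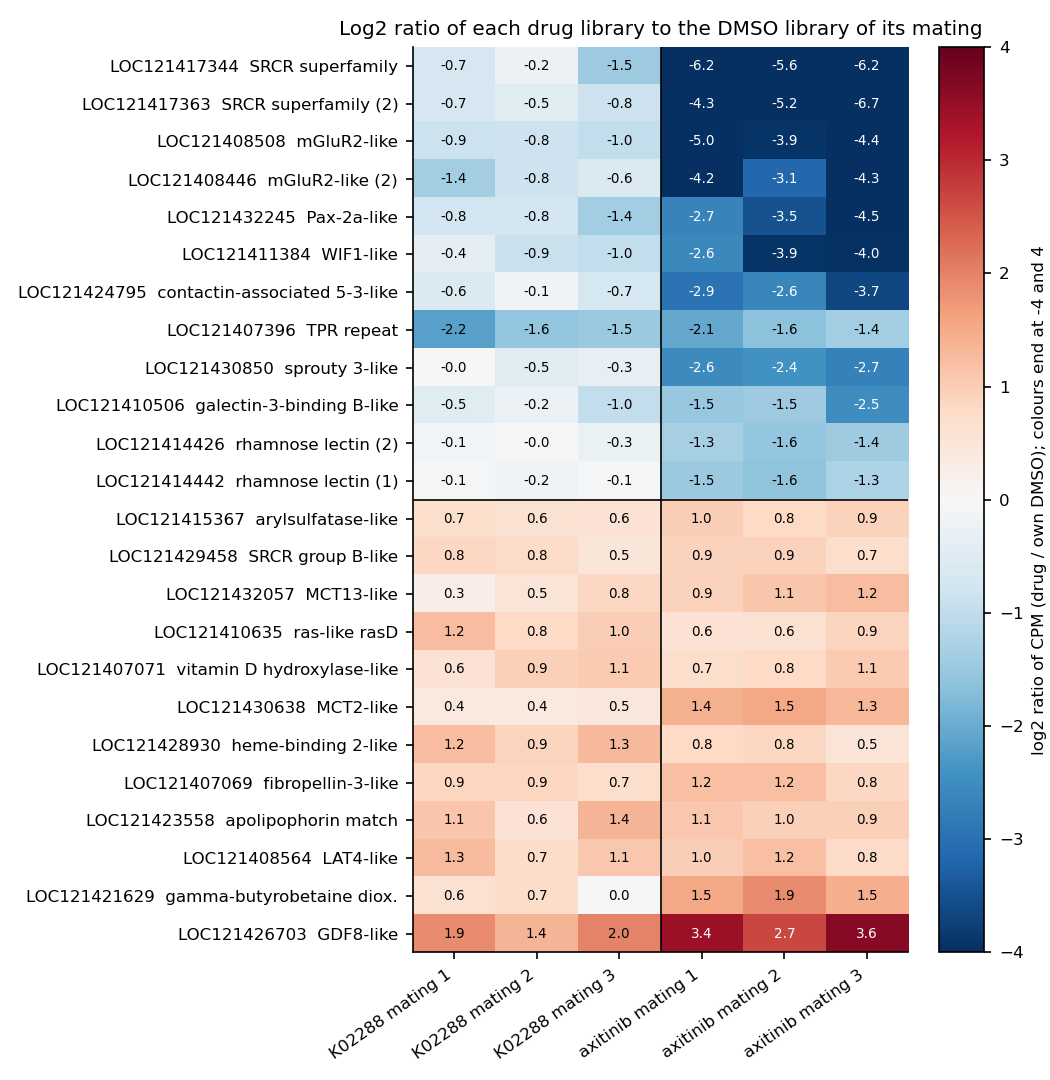
Log2 ratio of CPM in each drug library to the DMSO library of the same mating (columns) for the 12 lower and 12 higher named shared genes with the lowest p (rows). Colors end at -4 and 4. Rows at the top are much darker in the axitinib columns than in the K02288 columns, while most rows of the lower part have similar shades in all 6 columns.

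Of 27 tested spicule matrix and MSP130 genes, 7 were shared and lower (25.9%, median mean effect -0.31, against 1.52% and 0.01 over all tested genes). On the mean effect, none was called higher by edgeR or DESeq2, and 1 was higher at an unadjusted p under 0.05. With K02288 alone, edgeR called 1 higher. SM30 proteins are occluded in the mineral of the spicule, and LOC121406020 (30 kDa spicule matrix protein alpha-like) had normalized counts of 30734, 21728 and 22616 under DMSO, 20248, 19022 and 14941 under K02288 and 15299, 12204 and 8431 under axitinib. All drug libraries were below all DMSO libraries, and the mean effect was -0.78 ± 0.09 (SE, adjusted p = 2.65e-05), with a larger fall under axitinib (-1.09) than K02288 (-0.47). LOC121406083, named 30 kDa spicule matrix protein-like, fell by 38.3% with no overlap of groups, and its drug effects of -0.53 and -0.86 did not pass the test of a difference. The largest fall among the 7 shared genes was in another 30 kDa spicule matrix protein alpha-like gene, LOC121406359, with a mean effect of -2.09 (adjusted p = 0.00107).

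MSP130 is a glycoprotein anchored on the outer surface of PMCs. The MSP130-like gene LOC121427374 had normalized counts of 1439, 719 and 1063 under DMSO, 592, 474 and 639 under K02288 and 636, 488 and 661 under axitinib, and no drug library reached the lowest DMSO library. Its K02288 effect was -0.88 ± 0.12 (adjusted p = 5.37e-04) and its axitinib effect -0.82 ± 0.12 (adjusted p = 2.88e-04). Echinoidin-like LOC121427330, a C-type lectin gene, was 1 of the 2 shared members of this list in which the drugs differed by the test, and it fell more with K02288 (-0.79) than with axitinib (-0.45), and the drugs differed by -0.34 (95% confidence interval -0.55 to -0.13, adjusted p = 0.0493). Close copies exist in both families, and reads that fit several copies may have been divided among them.

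**Figure D3:**
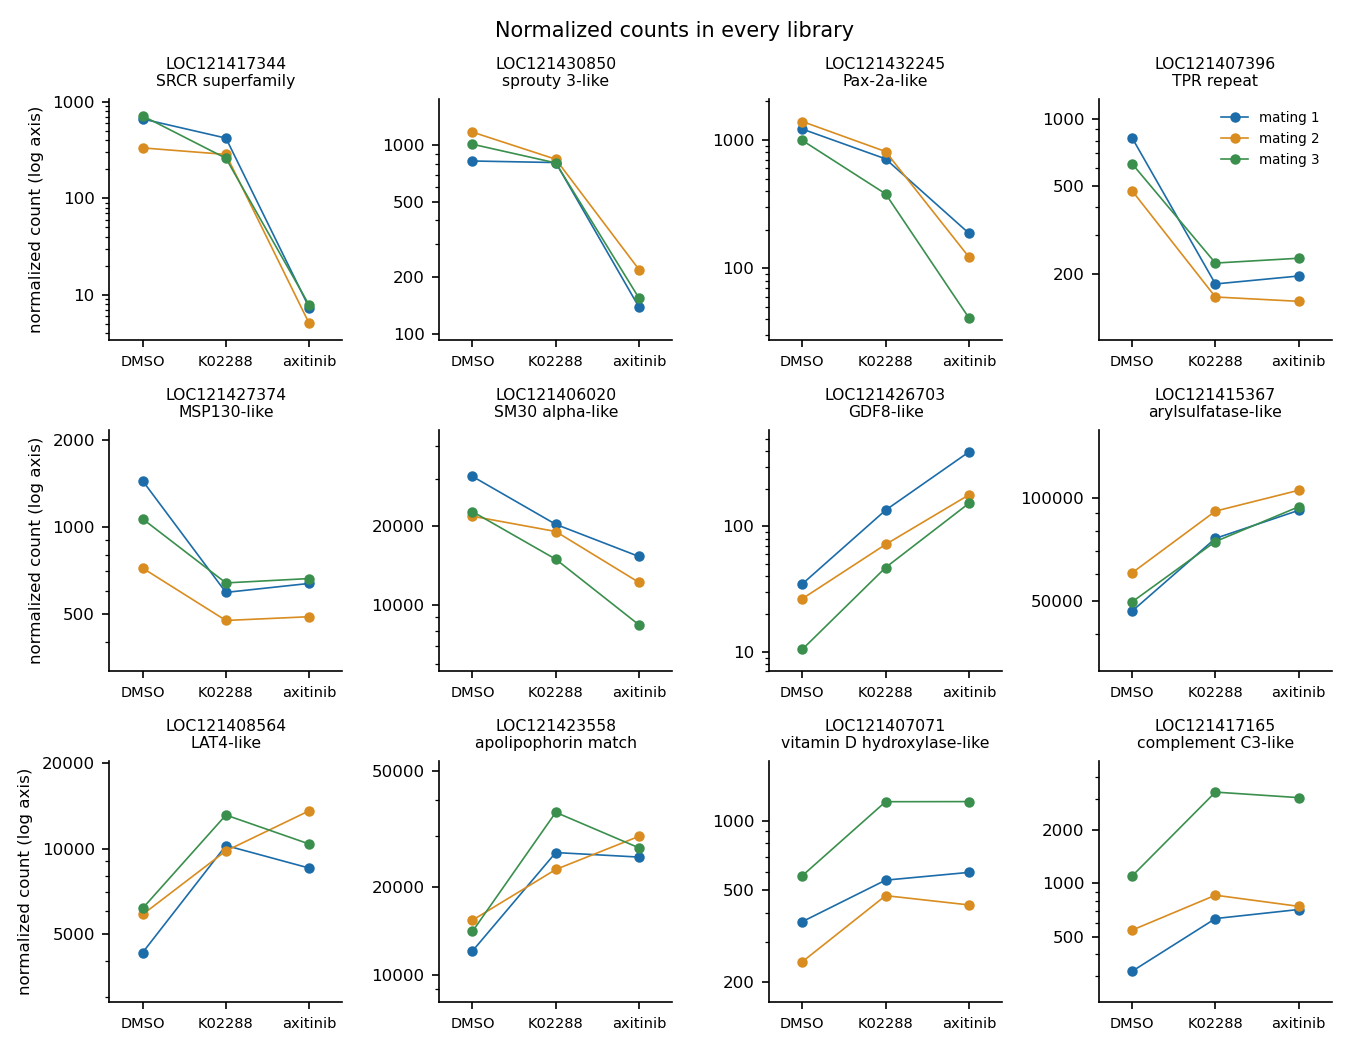
Normalized counts (log axis) of 12 shared genes in each library, with the treatment on the x axis and a line joining the 3 libraries of a mating. Lines of the first 6 panels descend from DMSO to the drugs and those of the last 6 ascend, and the distance between the lines shows how far the matings differed.

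The list of PMC-enriched genes that the study drew from published single-cell data had 301 tested members, and the genes that the study added to it by hand were not used here. Of these, 36 were shared and lower (12%) and 4 were shared and higher (1.33%), and 73.1% had a mean effect below 0, against 47.9% of all tested genes. The median of the list was -0.11. Ficolin-3-like LOC121428545, matched to a lectin that activates complement in vertebrates, fell by 50.2%, with -0.38 for K02288 (adjusted p = 0.115) and -1.63 for axitinib. Phospholipase A2-like LOC121423895 had normalized counts of 2127, 2083 and 2272 under DMSO, 1277, 1465 and 1323 under K02288 and 810.4, 1163 and 586 under axitinib. Its groups did not overlap, and its mean effect was -1.03 ± 0.12 (SE, adjusted p = 3.42e-05). The 4 higher genes of the list changed little, led by LOC121408340, a CCAAT/enhancer-binding protein alpha-like transcription factor (0.54 ± 0.09 (SE, adjusted p = 0.00240)).

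The list of metalloproteinases and inhibitors, which covers secreted enzymes that cut extracellular proteins, held 5 lower genes and 1 higher gene among 58 tested (8.62% and 1.72%, median -0.03). Matrix metalloproteinases were 4 of the lower genes, and LOC121426250, a zinc metalloproteinase nas-39-like gene, was the other. The matrix metalloproteinase-19-like gene LOC121408162 fell by 68.9% on the mean effect, and its normalized counts were 104, 84.0 and 95.3 under DMSO, 61.5, 58.4 and 68.6 under K02288 and 18.9, 8.05 and 14.5 under axitinib. Its K02288 effect of -0.58 did not pass alone (adjusted p = 0.295), and its axitinib effect was -2.78. Neighboring genes LOC121409094 (stromelysin-1-like) and LOC121409095 (matrix metalloproteinase-24-like), both on the PMC-enriched list, leaned to opposite drugs. The former had effects of -0.42 and -1.0 with K02288 and axitinib, while the latter had -0.95 and -0.54. An ADAMTS-like protease gene, LOC121428760, rose 1.68-fold and was the higher member. In the single-drug tests of the whole list, edgeR called 2 lower and 4 higher with K02288 (median 0.11). With axitinib it called 12 lower and 4 higher (median -0.18).

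Of 134 genes for extracellular matrix and basement membrane, 4 were shared and lower and 5 were higher (2.99% and 3.73%, median -0.05). Papilin-like LOC121407406, a basement membrane protein gene, had effects of -0.53 with K02288 and -0.50 with axitinib. Hemicentin matches went both ways. The abundant LOC121429044 had normalized counts of 30510.0, 27626 and 30142 under DMSO, 21757, 18461 and 21678 under K02288 and 24269, 14808 and 19396 under axitinib, a fall of 32.5% with no overlap of groups, and LOC121421380 rose 1.68-fold.

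Of 76 tested genes of the receptor tyrosine kinase and MAPK list, 5 were shared and lower and 3 were higher (6.58% and 3.95%, median -0.09), and the drugs differed in 5 of these 8. Sprouty proteins restrain signaling from receptor tyrosine kinases to ERK. LOC121430850 (sprouty homolog 3-like, chromosome 1, positions 12367621 to 12382002, minus strand) had normalized counts of 826, 1176 and 1014 under DMSO, 811, 844 and 807 under K02288 and 139, 219 and 155 under axitinib. The axitinib libraries stood far apart from the rest, while K02288 replicate 1 was nearly level with the DMSO library of its mating. Its mean effect of -1.42 ± 0.10 (SE, adjusted p = 8.39e-08) therefore joined a K02288 effect of -0.28 ± 0.11 (adjusted p = 0.256) to an axitinib effect of -2.56 ± 0.12 (adjusted p = 5.17e-10). ETV factors are ETS transcription factors induced by these pathways in vertebrates. The ETV4-like gene LOC121410752 had an effect of -0.20 with K02288 (adjusted p = 0.758) and -2.68 with axitinib.

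In the opposite direction, a gene named platelet-derived growth factor receptor alpha-like, LOC121415121, had normalized counts of 87.0, 61.9 and 81.7 under DMSO, 145, 137 and 128 under K02288 and 275, 247 and 236 under axitinib. Every drug library was above every DMSO library, and the mean effect was 1.28 ± 0.15 (SE, adjusted p = 3.11e-05). The small GTPase gene LOC121410635 (ras-like protein rasD) rose 1.82-fold, and mating 3 was high throughout. Its normalized counts were 1079, 985 and 2225 under DMSO, 2565, 1730.3 and 4430.1 under K02288 and 1629, 1504 and 4100.5 under axitinib.

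Components of the TGF-beta and BMP pathways moved in both directions, with 3 lower and 3 higher among 45 tested genes (6.67% each, median -0.10). The largest change in the list was a rise in a ligand gene, LOC121426703, which RefSeq names growth/differentiation factor 8-like, the myostatin type of the superfamily (chromosome 13, positions 33699770 to 33709836, minus strand). It had normalized counts of 34.8, 26.5 and 10.5 under DMSO, 135, 71.8 and 47.0 under K02288 and 392, 178 and 153 under axitinib. No drug library overlapped DMSO, and K02288 gave 1.78 ± 0.23 (adjusted p = 3.45e-04) and axitinib 3.30 ± 0.22 (adjusted p = 1.94e-08), a difference of -1.51 (95% confidence interval -1.90 to -1.12, adjusted p = 3.13e-05). LOC121423913, also named growth/differentiation factor 8-like, rose 2.67-fold. Tolloid-type proteases cleave the BMP antagonist chordin, and the *bmp1* homolog LOC121405581 rose more with K02288 (0.51) than with axitinib (0.21).

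The ligand gene *bmp2/4* itself (LOC446159) was lower, with normalized counts of 995, 760.2 and 695 under DMSO, 659, 641 and 609.7 under K02288 and 645, 544 and 495 under axitinib. Its groups did not overlap, and its mean effect was -0.44 ± 0.09 (SE, adjusted p = 0.00650), whereas the K02288 effect alone was -0.34 ± 0.10 (adjusted p = 0.0889). BMPER-like LOC121424882, a secreted BMP-binding protein gene, had effects of -0.35 with K02288 and -1.01 with axitinib, which differed by 0.66 (95% confidence interval 0.38 to 0.93, adjusted p = 0.00340). The Wnt antagonist gene LOC121411384 (wnt inhibitory factor 1-like) was on neither list. Its normalized counts were 409, 318 and 426 under DMSO, 313, 169 and 213 under K02288 and 67.2, 19.1 and 25.6 under axitinib, with no overlap between drug and DMSO libraries and a mean effect of -2.11 ± 0.17 (SE, adjusted p = 4.73e-07).

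Transcription factor genes were represented by 5 lower and 9 higher homeobox genes among 87 tested (5.75% and 10.3%, median -0.04). Pax-2a-like LOC121432245, a paired-box factor gene that this list did not include, fell the most of the named factors (chromosome 18, positions 19969777 to 20007926, minus strand). It had normalized counts of 1216, 1393 and 992 under DMSO, 713, 813 and 380.4 under K02288 and 188, 123 and 41.2 under axitinib. Each K02288 library lay above the axitinib library of its mating. The mean effect was -2.22 ± 0.16 (SE, adjusted p = 1.64e-07). HHEX-like LOC121424894 fell by 38.3% without overlap, and the effects of both drugs were alike in size at -0.60 and -0.79, differing by 0.19 (95% confidence interval -0.02 to 0.40, adjusted p = 0.338). LOC121420817, named abdominal-A homolog, fell by 61.1% on the mean effect, with -0.63 for K02288 (adjusted p = 0.0656) and -2.09 for axitinib.

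Higher homeobox genes had smaller changes. LIM-homeobox gene *lhx5*-like LOC121409326 had normalized counts of 794, 790.2 and 801 under DMSO, 1064, 930.2 and 1096 under K02288 and 1570.4, 1374 and 1859 under axitinib, so that DMSO levels were nearly identical across matings and all drug libraries exceeded them. The K02288 effect on LOC121409326 was 0.37 and did not pass alone (adjusted p = 0.0516). The MSX-2-like gene LOC121419325 rose 1.44-fold without overlap of groups. Among 31 nuclear receptor genes, 2 were lower and 1 was higher (6.45% and 3.23%, median -0.09). These included LXR-alpha-like LOC121405690, an oxysterol receptor gene, which fell by 29.7%.

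SUM-1, whose expression the study places in ventral PMCs, is the sea urchin member of the MyoD family of myogenic factors. Its 2 adjacent gene models on chromosome 19 were both lower, LOC446195 with normalized counts of 197, 229 and 188 under DMSO, 82.7, 138 and 78.0 under K02288 and 84.0, 21.1 and 37.9 under axitinib and LOC121405904 with 51.1, 56.6 and 64.9 under DMSO, 24, 49.8 and 20.7 under K02288 and 13.6, 8.05 and 5.57 under axitinib. In each of them all drug libraries were under all DMSO libraries, and axitinib gave the larger fall (-2.13 and -2.66, against -1.05 and -0.93 with K02288). Whether these models share reads was not tested. Of 55 tested muscle genes, 4 were shared and lower (7.27%), the others being titin-like LOC121417662 and LOC121417682 (median -0.03). On the mean effect, none was called higher by edgeR or DESeq2, and 1 was higher at an unadjusted p under 0.05. In the single-drug tests, edgeR called 2 higher with K02288 and 1 higher with axitinib. The summed muscle markers stayed between 0.858 and 1.06 times the own DMSO level, and none of the 8 tested markers was shared.

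Neuronal and synaptic genes held 10 lower and 1 higher shared gene among 237 tested (4.22% and 0.422%, median -0.02). Apart from the glutamate receptor matches, these included LOC121410168, a GABA transporter gene, with a mean effect of -0.71 ± 0.14 (SE, adjusted p = 0.00572), and LOC121424601, an acetylcholine receptor alpha-10-like gene of low counts (66.3, 45.1 and 29.3 under DMSO, 43.3, 25.8 and 13.2 under K02288 and 11.5, 15.1 and 3.34 under axitinib). The neurexin-like LOC121408769 was the higher one (0.87 ± 0.17 (SE, adjusted p = 0.00659)). None of the 9 neuron markers was shared, and their sum ranged from 0.885 to 0.996 times the DMSO level.

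Abundant genes of the embryo surface were among the higher ones. Arylsulfatase is known in sea urchin embryos as an extracellular matrix protein of the ectoderm. LOC121415367 (arylsulfatase-like, chromosome 5, positions 12586938 to 12598294, minus strand) had normalized counts of 46685, 60359 and 49661 under DMSO, 76054, 91328 and 74451 under K02288 and 91817, 105045 and 94031 under axitinib. Every drug library exceeded every DMSO library, and the mean effect was 0.76 ± 0.07 (SE, adjusted p = 2.33e-06). It rose with both drugs but further with axitinib, the difference being -0.27 (95% confidence interval -0.43 to -0.11, adjusted p = 0.0378). Not every arylsulfatase gene rose. Arylsulfatase B-like LOC121427609, far less abundant, was shared and lower, with a fall of 57.0% on the mean effect (adjusted p = 2.65e-05). Axitinib lowered it further (-1.89) than K02288 (-0.55), whose effect missed the threshold, and its drug and DMSO libraries overlapped. Fibropellins form the apical lamina within the hyaline layer, and fibropellin-3-like LOC121407069 rose 1.92-fold, with 0.80 for K02288 and 1.08 for axitinib.

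Other genes of the hyaline layer went the other way. Of 70 tested, 3 were lower and 2 were higher (4.29% and 2.86%, median -0.11). The 3 lower genes all match hyalin, the main protein of the layer, and LOC121432224 had normalized counts of 5459, 5581 and 6905 under DMSO, 3981, 2403 and 4356 under K02288 and 4670.3, 2237 and 3201 under axitinib, with no overlap and a mean effect of -0.84 ± 0.12 (SE, adjusted p = 5.32e-04). The hyalin matches are repetitive proteins with several close copies. Markers of ectoderm and hyaline layer, summed over 133 genes, were 1.01 to 1.15 times the DMSO level in the 6 drug libraries, and of the 81 tested 4 were shared and lower and 3 shared and higher.

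SRCR genes were split as well. Of 89 tested, 9 were lower and 3 were higher (median -0.00, 10.1% and 3.37%). LOC121429458, an SRCR group B-like gene, was high in all libraries, with normalized counts of 14657, 16457 and 16248 under DMSO, 26227, 28055 and 22827 under K02288 and 27670.0, 31373 and 26704 under axitinib, and rose with no overlap (0.78 ± 0.07 (SE, adjusted p = 4.69e-06)). DMBT1-like LOC121415504 fell with both drugs, at -1.45 for K02288 and -1.29 for axitinib, and its normalized counts were 709.9, 297 and 393 under DMSO, 212, 93.8 and 200.1 under K02288 and 194, 157 and 190.4 under axitinib. Outside this family, the L-rhamnose-binding lectin genes LOC121414442 and LOC121414426 had K02288 effects of -0.10 ± 0.09 (adjusted p = 0.703) and -0.12 ± 0.09 (adjusted p = 0.638). They entered through axitinib effects of -1.45 and -1.44.

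Of 193 amino acid and sugar transporter genes, 4 were shared and lower and 7 were higher (2.07% and 3.63%, median 0.07). LAT4 carries large neutral amino acids across membranes, and the LAT4-like gene LOC121408564 had normalized counts of 4294, 5850.0 and 6152 under DMSO, 10245, 9808 and 13127 under K02288 and 8530.1, 13587 and 10372 under axitinib. All drug libraries were above all DMSO libraries, and the drugs differed by 0.05 (95% confidence interval -0.20 to 0.29, adjusted p = 0.898). Monocarboxylate transporters move lactate and pyruvate. LOC121430638 (monocarboxylate transporter 2-like) and LOC121432057 (monocarboxylate transporter 13-like) rose 1.90-fold and 1.76-fold, both further with axitinib. A second amino acid transporter gene, LOC121407440, fell by 48.0% (946, 763 and 710.0 under DMSO, 578, 640.3 and 430.2 under K02288 and 424, 235 and 302 under axitinib normalized counts).

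Lipid transport genes had 3 lower and 4 higher members among 53 tested (5.66% and 7.55%, median -0.02). Apolipophorins are the lipid-carrying proteins of insect blood. LOC121423558, matched to them, had normalized counts of 12128, 15462 and 14158 under DMSO, 26338, 23053 and 36158 under K02288 and 25417, 29938 and 27329.5 under axitinib, with a mean effect of 1.01 ± 0.11 (SE, adjusted p = 1.42e-05) and a drug difference of 0.04 (95% confidence interval -0.21 to 0.28, adjusted p = 0.918). The second match, LOC121423421, rose 1.90-fold, and its drug libraries also lay above all of its DMSO libraries. On the lower side, fatty acid-binding protein 5-like LOC121418198 fell by 56.5%. Gamma-butyrobetaine dioxygenase makes carnitine, which carries fatty acids into mitochondria. The gene of this name, LOC121421629, rose 2.08-fold, with effects of 0.47 for K02288 (adjusted p = 0.0576) and 1.64 for axitinib.

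Of 260 genes for cytochrome P450 enzymes and other xenobiotic metabolism, 3 were lower and 6 were higher (1.15% and 2.31%, median 0.07). LOC121407071 was the leading one, named 1,25-dihydroxyvitamin D(3) 24-hydroxylase by RefSeq and matched to cytochrome P450 27C1. Its normalized counts were 366, 246 and 579 under DMSO, 554, 475 and 1209.9 under K02288 and 598, 433 and 1211 under axitinib. The groups overlapped, and both drug effects were 0.87. Glutathione S-transferase theta-1-like LOC121427553 rose 1.88-fold, and glutathione hydrolase-like LOC121406004, an enzyme gene of glutathione breakdown, rose 1.71-fold. Lysosomal and digestive hydrolases had 2 lower and 3 higher genes among 116 (1.72% and 2.59%, median 0.04). Over all tested genes these shares were 1.52% and 1.29%. Legumain-like LOC121419078 and 2 procathepsin L-like genes were higher, and 2 pancreatic lipase-related genes were lower, led by LOC121425506 (-0.78 ± 0.10 (SE, adjusted p = 1.52e-04)). Within matings the summed gut markers were 0.937 to 1.02 times the DMSO level with K02288 and 0.723 to 0.896 times with axitinib, and their part in the lipase result was not tested.

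Tubulins had the highest share of increased genes of any list. Of 52 tested, 8 were higher and 1 was lower (15.4% and 1.92%), the median was 0.16 and 26.9% had a mean effect below 0. The beta-tubulin gene LOC121428185 had normalized counts of 314, 151 and 345 under DMSO, 703, 262 and 671 under K02288 and 515, 272 and 667 under axitinib. Mating 2 was low throughout, and the mean effect on this gene was 0.91 ± 0.11 (SE, adjusted p = 4.18e-05). The abundant alpha-tubulin gene LOC121413394 rose 1.29-fold, and alpha-tubulin LOC121414525 fell by 25.5%. Alpha and beta tubulins are near-identical within each family, so the division of reads among copies is uncertain. Of 130 motile cilium genes none was called on the mean effect by edgeR or DESeq2, 7 had an unadjusted p under 0.05, and the median of that list was 0.05. Motor and actin genes had 4 lower and 3 higher among 120 tested (3.33% and 2.5%, median -0.03).

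Of 57 innate immune genes, 2 were shared and higher (3.51%, median 0.01). On the mean effect, edgeR called none lower, DESeq2 called 1 lower, and 4 were lower at an unadjusted p under 0.05. With axitinib alone, edgeR called 3 lower. Complement C3 is the protein that tags microbes for uptake, and the C3-like gene LOC121417165 had normalized counts of 319.6, 545 and 1103 under DMSO, 634, 858 and 3278 under K02288 and 713, 743 and 3051 under axitinib. It rose by 1.05 on the mean effect, from DMSO levels that differed widely among matings. Of 96 stress and apoptosis genes, 3 were lower and 3 were higher (6.25% shared in all, against 2.81% of all tested genes, median 0.04). LOC121431589, a DDIT4-like gene whose mammalian relative inhibits mTOR under stress, rose 1.77-fold without overlap of groups, and a p53-like gene, LOC121427417, rose 1.28-fold. Asparagine synthetase-like LOC121426071 fell by 40.5%, with -0.32 for K02288 and -1.18 for axitinib.

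Where lists of core cell functions held shared genes, their shares were near those of all tested genes (1.52% lower and 1.29% higher). None of 91 cytosolic ribosomal protein genes was called by edgeR, while 11 had an unadjusted p under 0.05 and DESeq2 called 2, all higher. In addition, 1 of 87 oxidative phosphorylation genes was higher (1.15%), and 2 of 157 chaperone genes were higher (1.27%). The chaperone genes were the endoplasmic reticulum BiP-like LOC121428459 at 0.40 ± 0.08 (SE, adjusted p = 0.0103) and the mitochondrial HSP60-like LOC121425882 at 0.37 ± 0.09 (SE, adjusted p = 0.0211). Cell cycle and replication genes had 2 lower members among 136 (1.47%). These were cyclin-dependent kinase 4 (LOC447791, -0.57 ± 0.12 (SE, adjusted p = 0.0115)) and its partner, a cyclin-D1-like gene (LOC121405827, -0.31 ± 0.07 (SE, adjusted p = 0.0244)). In both, the groups overlapped. The medians of these 4 lists were 0.09, 0.07, 0.06 and 0.02.

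**Figure D4:**
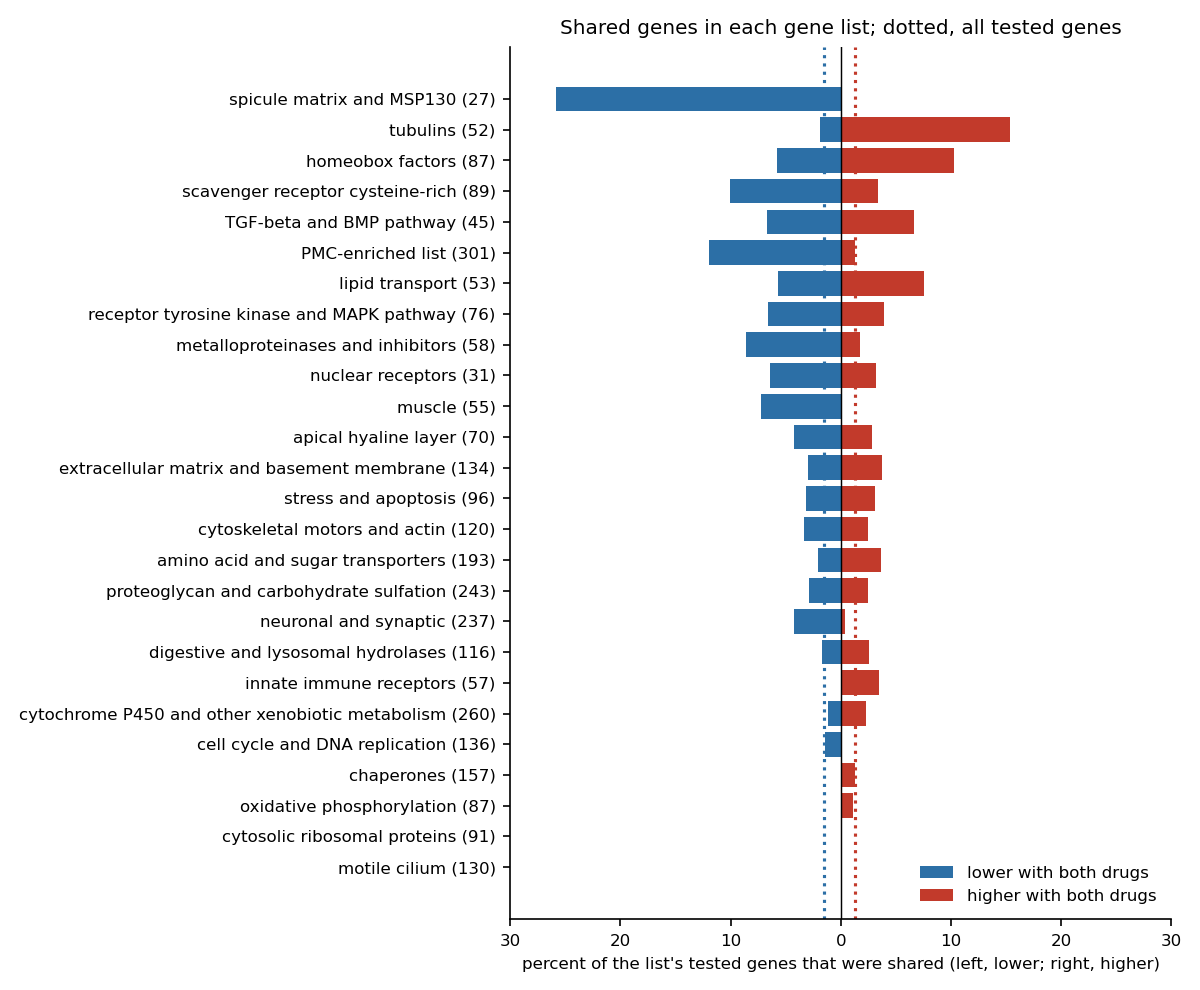
Percent of the tested genes of each list that were shared and lower (left, blue) or shared and higher (right, red), with the number tested in brackets and dotted lines for all tested genes at 1.52% and 1.29%. Spicule matrix genes reach furthest to the left and tubulins furthest to the right, while cytosolic ribosomal proteins and motile cilium genes have no bar.

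Carbohydrate-modifying enzymes of the list of proteoglycans and sulfation were divided into 7 lower and 6 higher genes among 243 (2.88% and 2.47%, median 0.02). A heparan sulfate 3-O-sulfotransferase-like gene, LOC121422431, also on the PMC-enriched list, had normalized counts of 546, 514 and 489 under DMSO, 405, 375 and 311 under K02288 and 373, 315 and 219 under axitinib. It fell without overlap (-0.65 ± 0.10 (SE, adjusted p = 8.69e-04)). Xyloside xylosyltransferase-like LOC121427621 rose 1.39-fold, and Sulf-1-like LOC121416153, a gene for an enzyme that removes sulfate from heparan sulfate outside the cell, rose 1.33-fold.

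Responses of similar size to both drugs were sought with the DMSO-free contrast. Of the 132 shared genes that passed for each drug alone, 106 did not pass the test of a difference, 44 lower and 62 higher. A missed test does not show equality, and the width of the interval matters. For 70 of the 106 the 95% confidence interval of the K02288 minus axitinib difference lay within 0.5 log2 units of 0, and for 101 it lay within 1. In the heme-binding protein 2-like gene LOC121428930, by contrast, the rise was larger with K02288, at 1.14, than with axitinib, at 0.74, and the difference was 0.40 (95% confidence interval 0.16 to 0.64, adjusted p = 0.0377).

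Differences between the drugs were frequent among the lower genes with the lowest p of the mean effect. That p also chose the shared genes, and a large effect of 1 drug both lowers it and sets the drugs apart. The ranking therefore favors genes in which the drugs differ. Of the 20 lower genes with the lowest p, 18 passed the test of K02288 against axitinib, with median effects of -0.71 for K02288 and -2.96 for axitinib. Of the 20 higher genes with the lowest p, 10 passed, with medians of 0.87 and 0.99. Over the 85 lower genes that differed, the medians were -0.42 for K02288 and -1.21 for axitinib, and over the 46 higher genes they were 0.48 and 0.92.

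A further 146 genes passed on the mean effect but not in all 6 pairs, of which 106 were lower and 40 higher. In 118 of them the drugs differed, and in 32 the K02288 effect had the opposite sign to the mean, against 6 for axitinib. Genes in which K02288 and axitinib each passed in opposite directions numbered 44 over the whole table, and they are no part of the shared response.

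The separation of groups was incomplete for most members. Of the 474 shared genes, 151 had all 6 drug libraries beyond all 3 DMSO libraries, 96 on the lower and 55 on the higher side (over all tested genes 1.24% and 0.842%). In the others the levels of drug and DMSO libraries from different matings crossed. Over the shared genes, the size of the effect was also unequal among matings. The same libraries chose these genes, so the values below do not show how the matings differ over all tested genes. The median size of the effect over shared genes was 0.53, 0.56 and 0.66 log2 units in matings 1, 2 and 3, and mating 3 gave the largest of the 3 effects in 220 genes, mating 2 in 138 and mating 1 in 116.

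**Figure D5:**
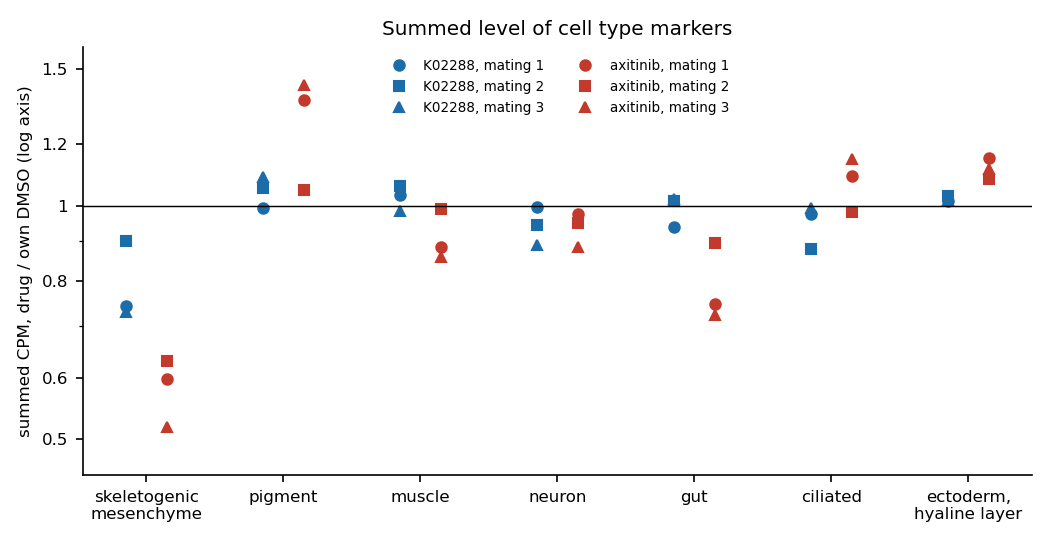
Summed level of the markers of each cell type in every drug library divided by the DMSO library of the same mating (log axis), with color for the drug and symbol for the mating. All 6 PMC points lie below 1, between 0.519 and 0.900, with the axitinib points lowest, and the ectoderm points lie between 1.01 and 1.15.

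Of 40 tested gut markers, 2 were shared and lower. Of 17 tested pigment cell markers, 3 were shared and higher, and the summed level was 0.994 to 1.09 times DMSO with K02288 and 1.05 to 1.43 times with axitinib. Ciliated cell markers ranged from 0.878 to 1.15 times DMSO and had no shared gene among 30 tested.

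Of the 474 shared genes, 448 were protein-coding, 14 were pseudogenes and 11 were long noncoding RNAs, and 87 had no protein name (18.4%, against 17.2% of all tested genes). The clearest of the unnamed genes were LOC121423124, with normalized counts of 184, 78.7 and 279.6 under DMSO, 34.6, 24.9 and 52.6 under K02288 and 10.5, 6.04 and 15.6 under axitinib, and LOC121429222, with 2236, 2582 and 3253 under DMSO, 5183, 4076 and 5319 under K02288 and 9421, 10510.4 and 9727 under axitinib. In both, all drug libraries were beyond all DMSO libraries. There were 21 pairs of adjacent genes that moved in the same direction, 13 lower and 8 higher, which held 42 shared genes (8.86%), and 6 adjacent pairs moved in opposite directions. The number of such pairs among equally many genes of the whole table was not computed, so these counts do not show clustering. Of the same-direction pairs, 2 joined genes with the same name and may be tandem copies.

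At the limit of the call, the last genes inside were LOC121418448, a sodium-driven chloride bicarbonate exchanger-like gene on the PMC-enriched list (adjusted p = 0.0485), LOC121430760, an actin gene (0.0486), LOC121422487 (0.0487) and LOC121418833 (0.0491). The first genes with 6 of 6 pairs outside it were LOC121416726 (0.0501), LOC121422718 (0.0505), LOC121426101 (0.0505) and LOC121405893 (0.0505). Their mean effects ran from -0.37 to 1.31 inside and from -0.68 to 0.47 outside.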

How the data were processed

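Poly-A RNA of 9 whole-embryo libraries was sequenced, 3 per treatment. Per the submitters' processing notes and the study's methods, reads were mapped with HISAT2 (version not given in the sources used here) to the *L. variegatus* genome (v3.0). The authors deposited raw whole-number counts per gene, and they deposited FPKM values, which are scaled by gene length and library size. The counting tool, its treatment of strand and of reads with several matches are not given in the sources used here, so values of near-identical copies, overlapping genes and antisense genes are uncertain. Totals ran from 9359212 to 11815263 counts, with a floor of 3 counts per library. All 26814 genes matched the RefSeq annotation of Lvar_3.0 with equal coordinates.

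Low counts were filtered with filterByExpr on the treatments, and TMM factors and a two-sided quasi-likelihood fit came from edgeR 4.0.16 in R 4.3.3, over all 9 libraries and with the mating as a block. The contrasts were the mean of K02288 and axitinib against DMSO, each drug against DMSO, and K02288 against axitinib, with Benjamini-Hochberg adjustment over 16866 genes. Effects are log2 fold changes with SE, and normalized counts are counts scaled by TMM library size. Library pairs were read on log2 CPM with a prior count of 2. The script was tested on simulated data.

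The block rests on the methods, which name separate matings. After group means were removed, log2 values correlated across genes at r between 0.706 and 0.750 for the 9 library pairs of 1 mating and between -0.542 and -0.327 for the 27 others. Removing the means of groups of 3 libraries pushes correlations between matings below 0, so this gap is in part built in. Genes are not independent replicates.

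Genes were named by rule: the 12 lower and 12 higher shared genes with the lowest p and a protein name, up to 4 per list and direction, 2 per direction without a name, and the 6 called genes with the lowest p of K02288 against axitinib. A homeobox gene that the rule also named is not reported here. Lists were pattern searches of gene descriptions, except the PMC-enriched list, which used the distinct gene identifiers of the study's single-cell list (302, all in the table), without the genes it added by hand. Members and lists were chosen with earlier results of these data known, and patterns were corrected for false matches after values were seen.

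Alternatives were RLE size factors, other filters, DESeq2 1.42.0, no block, limma-trend (limma 3.58.1) on log2(FPKM + 1) or log2(FPKM + 0.1), other thresholds, and leaving out each library or mating. The deposited comparisons of the authors (fold changes and p-values) were not used. No sequences are shown.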

Additional observations from a re-analysis of the deposited data

Results flagged for a closer look

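Among the 474 shared genes, 131 differed between the drugs in the contrast of K02288 with axitinib by edgeR's quasi-likelihood test. Of the genes called on the mean effect, the 6 with the lowest p of that contrast are given here, and all but the first lie outside the shared set. Positive values mean a higher level with K02288.

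In LOC121417344, the SRCR gene described above, K02288 exceeded axitinib by 5.58 (95% confidence interval 4.97 to 6.18, adjusted p = 1.26e-09) on the log2 scale. LOC121410751, an ETV1-like transcription factor gene, had normalized counts of 4055, 4297 and 4000.4 under DMSO, 3109, 4319 and 3502 under K02288 and 646, 744 and 640.2 under axitinib, and the drugs differed by 2.42 (95% confidence interval 2.22 to 2.62, adjusted p = 6.08e-11). In LOC121411681, which has no protein name, the difference was 2.79 (95% confidence interval 2.47 to 3.11, adjusted p = 1.93e-09). LOC121405990, matched to a snake venom C-type lectin, had normalized counts of 594, 463 and 527 under DMSO, 835, 683 and 704 under K02288 and 126, 68.4 and 64.6 under axitinib. It was higher than DMSO with K02288 in all pairs and lower with axitinib in all pairs, a difference of 3.12 (95% confidence interval 2.82 to 3.43, adjusted p = 6.54e-10). In the other direction, procathepsin L-like LOC121410870 differed by -2.16 (95% confidence interval -2.38 to -1.94, adjusted p = 7.93e-10), with a K02288 effect of 0.07 and an axitinib effect of 2.23.

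LOC121431768, which has no protein name, had raw counts of 96, 93 and 50 under DMSO, 0, 1 and 0 under K02288 and 227, 178 and 121 under axitinib. The fitted difference was -8.70 (95% confidence interval -9.62 to -7.79, adjusted p = 1.07e-09). This value and its interval depend on the prior count because K02288 libraries held a single read. The ratio of summed counts scaled by library size was 582 for axitinib to K02288 (exact 95% interval 104.1 to 23047, counting error only) and 250.4 for DMSO to K02288 (44.5 to 9932). Groups of 3 libraries are too small for a search for single outlying samples.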

How the results depend on the processing

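The counts depended most on the mating. Without the replicate block, which the matings justify, 17 genes were called on the mean effect (12 lower and 5 higher, so that 70.6% of calls were lower instead of 58.4%), 12 were shared, 7 of those in the alternative set differed between the drugs, and K02288 and axitinib alone gave 2 and 56 calls. Limma-trend on log2(FPKM + 1) gave 312 calls, 267 shared genes, 77 that differed and 136 for K02288, and with a pseudocount of 0.1 these were 303, 257, 83 and 135. Testing all genes with a count, with no filter, raised the calls on the mean effect to 1046 and those for K02288 to 881. At an unadjusted p of at most 0.05 there were 2538 calls and 1440 shared genes. Requiring each drug to pass alone left 133 genes with the same direction.

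Leaving out 1 library gave 250 to 597 calls on the mean effect, 212 to 471 shared genes, 97 to 156 that differed, 156 to 488 calls for K02288 and 630 to 1127 for axitinib. Leaving out 1 mating gave 209 to 489, 178 to 426, 70 to 128, 113 to 305 and 506 to 851. The lowest counts came without DMSO replicate 3 or all of mating 3, except that the K02288 and difference counts were lowest without K02288 replicate 3 among single libraries. K02288 calls also fell to 206 without K02288 replicate 1 and to 192 without DMSO replicate 3, and axitinib calls to 699 without axitinib replicate 3. Fewer samples alone lower such counts, and the other causes were not tested. Without DMSO replicate 3, 188 of the original 474 shared genes were kept, and without mating 3, 157.

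RLE size factors (477 shared genes), at least 10 counts in every library (472) and DESeq2 (431, of which 402 were among the 474) kept all counts within 1.5 times. No named gene changed direction under any alternative run. Of 146 named genes, 13 kept their call throughout, 132 lost it without the block, 71 without mating 3 and 11 with DESeq2. The alternatives for the single-drug counts were added after the data had been seen. With 3 libraries per treatment and matings that differ this much, small shared effects near the threshold are the least secure.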

Other observations

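Of the 474 shared genes, 185 fell in at least 1 of the 26 gene lists and 289 in none, of which 208 had a protein name. Except for the ETS1-like gene, the genes named here come from those 208, and all were chosen after their values were seen. Both ornithine decarboxylase-like genes among them, for the first enzyme of polyamine synthesis, were higher: LOC121430985 had normalized counts of 95.7, 179 and 93.2 under DMSO, 173, 338 and 167 under K02288 and 254, 449.8 and 374 under axitinib and LOC121430933 had 288, 205 and 146 under DMSO, 453, 264 and 214 under K02288 and 611, 363 and 385 under axitinib. Their mean effects were 1.23 ± 0.14 (SE, adjusted p = 4.37e-05) and 0.81 ± 0.12 (SE, adjusted p = 3.80e-04). An L-lactate dehydrogenase A-like gene, LOC121406038, rose 1.54-fold (0.63 ± 0.09 (SE, adjusted p = 2.67e-04)), and regucalcin-like LOC121431432 rose 3.61-fold.

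On the lower side, rhodopsin-like LOC121432227 had normalized counts of 91.3, 84.0 and 173 under DMSO, 43.3, 73.7 and 62.9 under K02288 and 5.25, 0 and 5.57 under axitinib, with a mean effect of -2.92 ± 0.32 (SE, adjusted p = 2.65e-05). The gene for a carotene dioxygenase-like enzyme, which makes retinal from carotene in animals, was also lower (LOC121408890, -1.77 ± 0.19 (SE, adjusted p = 1.70e-05)). A second Wnt antagonist gene beside wnt inhibitory factor 1, dickkopf-related protein 2-like LOC121432167, had normalized counts of 132, 221 and 222 under DMSO, 92.3, 181 and 183 under K02288 and 36.7, 69.4 and 74.6 under axitinib and fell by 50.6%. On the mean of both drugs, the transcription factor 21-like gene LOC121430479 fell by 56.2%, and a thyroid peroxidase-like gene, LOC121408793, by 70.1%. Of the PMC-enriched list, the ETS1-like gene LOC121419770, related to a factor of the skeletogenic network, fell by 40.7% on the mean effect. Its normalized counts were 461, 549.8 and 547 under DMSO, 455, 468 and 349 under K02288 and 263, 225 and 193 under axitinib. K02288 replicate 1 was nearly level with its DMSO library, and each axitinib library lay below the K02288 library of its mating. At its own threshold, the study lists LOC121419770 and LOC121430479 among genes lowered by axitinib only. Among the most abundant genes of the whole set, LPS1-beta-like LOC121408255, related to a calcium-binding protein of the aboral ectoderm, had normalized counts of 28726, 52067 and 50206 under DMSO, 21346, 45396 and 34723 under K02288 and 19510.4, 40483 and 30306 under axitinib and a mean effect of -0.47 ± 0.07 (SE, adjusted p = 6.73e-04).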
